A study of Mus musculus with 8 samples.

Results

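The genes described here make, break down, load and sense the inhibitory transmitter GABA in N134 cells, a mouse line of C57BL/6 background that the labels describe as a pancreatic beta cell tumor. They are Gad1, Gad2, Abat, Slc32a1, Gabbr1, Gabbr2 and Gabra4, chosen by name, and all 7 were found among the 23309 genes of the deposited expression table. Libraries 5 to 8 came from cells given a GFP construct for overexpression of microRNA-431 (miR-431, n = 4), and libraries 1 to 4 from cells given the matching GFP construct with a LacZ control (miR-LacZ, n = 4). The labels name neither a promoter nor a vector, and they do not tell separate cultures or clones from repeat libraries. The p-values therefore measure library-to-library spread, and this may be technical only.

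GABA is made from glutamate by glutamate decarboxylase, an enzyme with 2 forms encoded by Gad1 and Gad2, and is broken down in mitochondria by GABA transaminase, encoded by Abat. In neurons the product of Slc32a1 loads GABA into synaptic vesicles. Released GABA acts on GABA-A receptors, which are chloride channels built from several subunits such as that of Gabra4, and on GABA-B receptors, which signal through inhibitory G proteins. A GABA-B receptor needs both of its subunits, since that of Gabbr1 binds GABA and that of Gabbr2 brings the complex to the surface and couples it to the G protein. Pancreatic beta cells are known to make GABA outside the nervous system, and islet cells carry both kinds of receptor.

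Values are FPKM, fragments scaled to transcript length and library size, so levels of different genes can be set side by side. A gene was tested where it reached 1 FPKM in at least 4 of the 8 libraries, and log2 fold changes were taken of FPKM + 1, so the change of a gene at a low level is understated. The transcript annotated as Mir431 was listed at 0 in every miR-LacZ library and stood between 18100 and 37800 FPKM in the miR-431 libraries, and mature microRNA was not measured. The summed FPKM per library lay between 521889 and 625005, and 11603 to 11790 genes per library reached 1 FPKM. All 10 beta cell markers examined passed the level filter, of which 1 rose and 3 fell. Of the other cell types, 0 of 4 leukocyte, 1 of 6 acinar and 1 of 5 fibroblast markers passed it. The acinar and the fibroblast marker fell (log2 fold changes −1.36 and −1.09). Each passed only through the miR-LacZ libraries, in which it was high, so nothing is read from these falls. Of 7 markers of other islet hormone cells 3 passed and 1, Irx2, rose (0.86, limma adjusted p = 0.00301), with sums of 81.1 to 190 FPKM in miR-431 libraries and 61.2 to 167 FPKM in miR-LacZ libraries. Across the table, limma called 3454 of 11807 tested genes at an adjusted p below 0.05 (29.3%), with 15.4% of tested genes higher and 13.8% lower in miR-431 cells, so a call on a single gene was common in this comparison.

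The overexpressed microRNA and its candidate matches were read from RefSeq (GRCm38.p6) and from GENCODE M21 transcripts. Both mature arms of the microRNA are shown because the search for matches rests on their seeds, which are bases 2 to 8 and are given in capitals. They lie at chr12:109590459-109590479 and chr12:109590502-109590523 on the plus strand.
mmu-miR-431-5p: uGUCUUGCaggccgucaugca
mmu-miR-431-3p: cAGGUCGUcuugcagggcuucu

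The letters GCAAGAC, which pair with the seed of the 5p arm, were not found in the annotated 3′ UTR of any of the 7 genes, and neither were the letters ACGACCT for the 3p arm. Only the transcript strand was searched, in 1 transcript a gene, with UTR lengths from 744 bases in Slc32a1 to 3528 bases in Gad2. The first motif was present in 6.49% of 11304 tested genes with a 3′ UTR and the second in 1.42%. Among the other GABA system genes described further on, 5 of the 62 tested held the 5p match and 0 held the 3p match. Of these 5, 1 rose, 0 fell and 4 were not called, where 15.4% of all tested genes rose and 13.8% fell. Nothing is read from so small a count. The one that rose was Zdhhc3, whose enzyme attaches palmitate to a GABA-A receptor subunit. Its 2 matches are shown with those of Aldh9a1, an aldehyde dehydrogenase that can make GABA from a putrescine product, and Lrrc8a, a subunit of volume-regulated anion channels, with the matching bases in capitals, since each of these 3 genes holds a match followed by an A.
Zdhhc3, bases 2770 to 2776 of the 3′ UTR: aggaatacccatGCAAGACtggcat
Zdhhc3, bases 5226 to 5232 of the 3′ UTR: cttctccttaagGCAAGACacaggt
Aldh9a1, bases 672 to 678 of the 3′ UTR: tctaactaactaGCAAGACagctca
Lrrc8a, bases 790 to 796 of the 3′ UTR: ttgagcaaagcaGCAAGACattgaa

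The 2 subunit genes of the GABA-B receptor moved in opposite directions. Gabbr1 was 6.55-fold higher in miR-431 cells, and Gabbr2 stood at 53.3% of its miR-LacZ level. Abat, the gene for the enzyme that degrades GABA, was 1.44-fold higher. Gad1, Gad2 and Gabra4 did not pass the test, and Slc32a1 was close to 0 in all libraries. Of the 6 genes tested, 2 rose and 1 fell, where 15.4% of all tested genes rose and 13.8% fell. Gabbr1 passed the level filter only through the 4 libraries in which it was high, so nothing is read from this count.

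Gabbr1 (NM_019439, chr17:37182910-37211250, mm9) stood at 3.17, 2.71, 3.73 and 2.93 FPKM in libraries 5, 6, 7 and 8 of miR-431 cells, against 0.610, 0.513, 0.627 and 0.163 FPKM in libraries 1, 2, 3 and 4 of miR-LacZ cells. The lowest miR-431 library was above the highest miR-LacZ library, and miR-LacZ 4 was the lowest of all. The means were 3.13 ± 0.438 FPKM in miR-431 cells and 0.478 ± 0.216 FPKM in miR-LacZ cells (SD, n = 4 each). This is a log2 fold change of 1.49, with an SE of 0.133 and a limma adjusted p = 5.41e-05. With all 18903 genes above 0 tested, of which 21.0% were called, its limma adjusted p was 0.000316. With smaller pseudocounts of 0.1 and 0.01 the log2 fold change was 2.58 and 2.84, so its size depends on the pseudocount. Of the 30 tested genes nearest to Gabbr1 on the chromosome, 7 rose and 1 fell, with a median log2 fold change of 0.18. Of all tested genes, 15.4% rose and 13.8% fell. With the median of these neighbours removed from each library, the log2 fold change of Gabbr1 was 1.19 (limma adjusted p = 0.000187).

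Gabbr2 (NM_001081141, chr4:46676769-47004586, mm9) stood at 24.5, 26.5, 29.9 and 22.9 FPKM in libraries 5, 6, 7 and 8 of miR-431 cells, against 47.3, 48.2, 45.0 and 54.3 FPKM in libraries 1, 2, 3 and 4 of miR-LacZ cells. The groups did not overlap, as was the case for 31.1% of tested genes. Its means were 25.9 ± 3.02 FPKM in miR-431 cells and 48.7 ± 4.01 FPKM in miR-LacZ cells (SD, n = 4 each). This is a log2 fold change of −0.89, with an SE of 0.101 and a limma adjusted p = 0.000227. Of the 30 tested genes nearest to it on the chromosome, 2 rose and 9 fell, with a median log2 fold change of −0.22. Of all tested genes, 15.4% rose and 13.8% fell. With the median of neighbouring genes removed from each library, the log2 fold change of Gabbr2 was −1.06 (limma adjusted p = 0.000118). With that median taken over values centred on each gene's mean, an alternative chosen after seeing the data, it was −0.76 (limma adjusted p = 0.000368).

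Gabbr2 thus stayed the more abundant subunit transcript in every library, but by different margins. The ratio of Gabbr2 to Gabbr1 was 7.71, 9.78, 8.02 and 7.83 in libraries 5, 6, 7 and 8 of miR-431 cells, against 77.5, 93.9, 71.8 and 333 in libraries 1, 2, 3 and 4 of miR-LacZ cells. The ratio of 333 belongs to the library with the least Gabbr1. These ratios compare transcript levels per length and were not tested. The sum of both transcripts was 25.9 to 33.6 FPKM in miR-431 libraries and 45.6 to 54.5 FPKM in miR-LacZ libraries. In bulk RNA, fewer cells with a transcript and less of it per cell cannot be told apart.

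**Figure D1:**
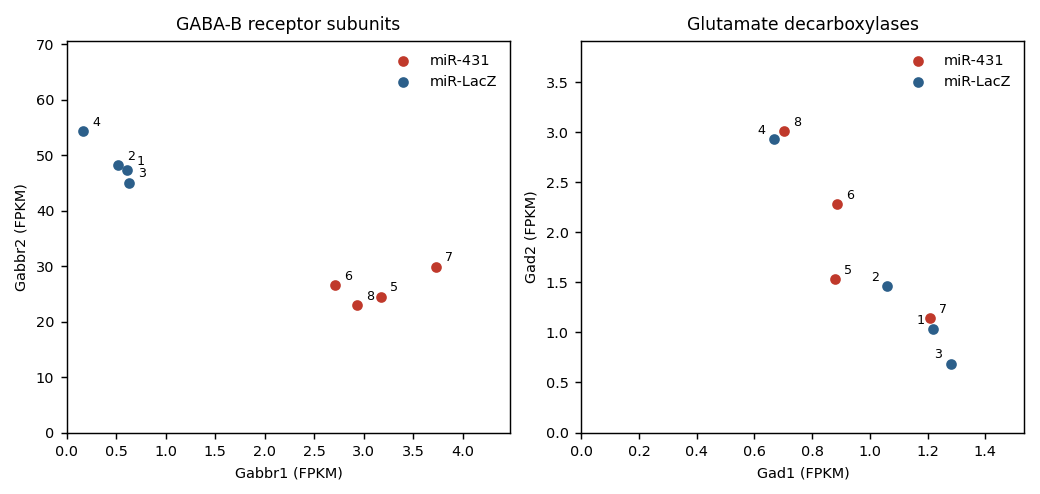
FPKM of Gabbr2 against Gabbr1 (left) and of Gad2 against Gad1 (right), with 1 point per library, its number beside it and linear axes from 0. On the left the miR-431 libraries sit at 2.71 to 3.73 FPKM of Gabbr1 and the miR-LacZ libraries at 0.163 to 0.627 FPKM, while on the right libraries of both groups are mixed.

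Neither decarboxylase gene differed beyond the spread between libraries. Gad1 (NM_008077, chr2:70327996-70440069, mm9) stood at 0.880, 0.886, 1.21 and 0.704 FPKM in libraries 5, 6, 7 and 8 of miR-431 cells, against 1.22, 1.06, 1.28 and 0.667 FPKM in libraries 1, 2, 3 and 4 of miR-LacZ cells. The groups overlapped, and the lowest values were those of miR-431 8 and miR-LacZ 4. The log2 fold change was −0.09 with a 95% interval of −0.38 to 0.19 (limma adjusted p = 0.614). Exact permutation of the library labels, two-sided, gave p = 0.457 for the difference in FPKM, where the smallest p that 4 against 4 libraries allow is 0.0286. In the table Gad1 shares its locus with Erich2 and 1500002O10Rik, so reads of overlapping transcripts could be split between them.

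Gad2 (NM_008078, chr2:22477846-22549397, mm9) stood at 1.53, 2.28, 1.14 and 3.01 FPKM in libraries 5, 6, 7 and 8 of miR-431 cells, against 1.03, 1.46, 0.689 and 2.93 FPKM in libraries 1, 2, 3 and 4 of miR-LacZ cells. Libraries 8 and 4, the lowest for Gad1, were the highest for Gad2. The log2 fold change was 0.28 with a 95% interval of −0.32 to 0.87 (limma adjusted p = 0.464, exact permutation p = 0.457). This interval includes a change as large as that of Abat, so such a change was not excluded here. With libraries weighted by their quality the fold change of Gad2 was 0.46 and passed the threshold (limma adjusted p = 0.0395). The ratio of Gad2 to Gad1 ran from 0.948 in library 7 to 4.27 in library 8 among miR-431 libraries, and from 0.540 in library 3 to 4.39 in library 4 among miR-LacZ libraries. The ratios of the 2 groups overlapped.

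Abat (NM_172961 and NM_001170978, chr16:8513521-8621660, mm9) was the most abundant of the 7 genes in every miR-431 library. It stood at 60.8, 66.5, 49.8 and 59.6 FPKM in libraries 5, 6, 7 and 8 of miR-431 cells, against 44.7, 46.8, 34.4 and 38.7 FPKM in libraries 1, 2, 3 and 4 of miR-LacZ cells. The groups did not overlap, and the closest pair was miR-431 7 and miR-LacZ 2. The log2 fold change was 0.52, with an SE of 0.122 and a limma adjusted p = 0.0111, from means of 59.2 ± 6.96 FPKM in miR-431 cells and 41.1 ± 5.68 FPKM in miR-LacZ cells (SD, n = 4 each). Of its 30 nearest tested genes, 0 rose and 6 fell, where 15.4% of all tested genes rose and 13.8% fell. Abat exceeded the sum of the 2 decarboxylase transcripts 16.1- to 25.2-fold in miR-431 libraries and 10.8- to 19.8-fold in miR-LacZ libraries.

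Slc32a1 (NM_009508, chr2:158436493-158441483, mm9), the vesicular GABA transporter gene, was below the level tested. It was listed at 0.0687, 0.0281, 0 and 0.0303 FPKM in libraries 5, 6, 7 and 8 of miR-431 cells, against 0.0122, 0.0184, 0 and 0 FPKM in libraries 1, 2, 3 and 4 of miR-LacZ cells. If the commonest step among low values is 1 fragment, the highest of these corresponds to about 6.47 fragments. The groups overlapped, and the exact permutation test gave p = 0.2. With no level filter its log2 fold change was 0.03 (limma adjusted p = 0.268), in a fit that called 7.0% of the 7096 genes below the filter higher and 6.45% lower. A difference in Slc32a1 was not detectable at this depth.

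By the same estimate, Gad1 rested on 82.5 to 127 fragments in miR-431 libraries and 78.0 to 149 in miR-LacZ libraries. Gabbr1 rested on 532 to 615 fragments in miR-431 libraries and 29.9 to 115 in miR-LacZ libraries. In libraries 1 and 5 the step was less distinct, with 13.1% and 11.5% of low values near it, against 20.7% to 24.9% in the other 6, so the estimate is weaker there.

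**Figure D2:**
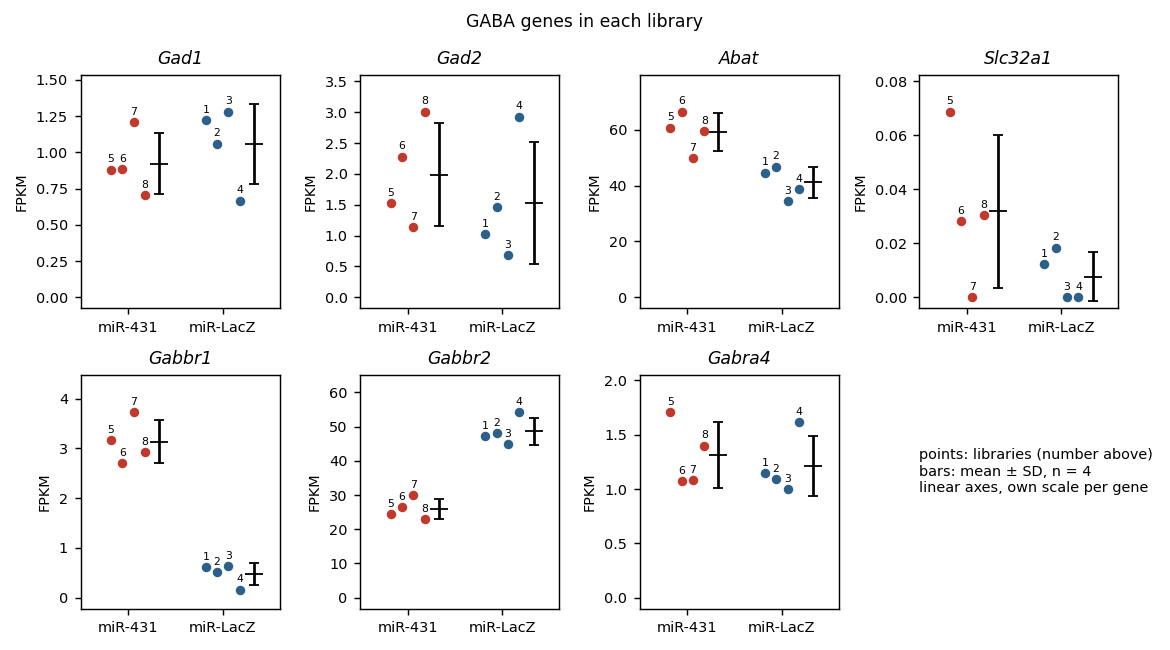
FPKM of the 7 genes in each library, with the library number above each point and the mean ± SD (n = 4) beside each group, on linear axes scaled per gene. Gabbr1 and Abat sit higher in all miR-431 libraries, Gabbr2 sits lower, and the groups overlap for Gad1, Gad2, Slc32a1 and Gabra4.

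Gabra4 (NM_010251, chr5:71960972-72049547, mm9), which encodes a GABA-A receptor alpha subunit, stood at 1.71, 1.07, 1.08 and 1.40 FPKM in libraries 5, 6, 7 and 8 of miR-431 cells, against 1.15, 1.09, 1.00 and 1.62 FPKM in libraries 1, 2, 3 and 4 of miR-LacZ cells. The groups overlapped throughout. Its log2 fold change was 0.06 with a 95% interval of −0.22 to 0.35 (limma adjusted p = 0.747, exact permutation p = 0.657). After the median of neighbouring genes was subtracted from each library it was 0.42 and passed the threshold (limma adjusted p = 0.0361). When that median was taken over values centred on each gene's mean, an alternative chosen after seeing the data, it was 0.21 and did not pass (limma adjusted p = 0.244).

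In order of their means in miR-431 cells, the genes ran from Abat (59.2 FPKM) over Gabbr2 (25.9), Gabbr1 (3.13), Gad2 (1.99), Gabra4 (1.32) and Gad1 (0.919) to Slc32a1 (0.0318). In miR-LacZ cells Gabbr2 (48.7 FPKM) came before Abat (41.1), and Gabbr1 (0.478) followed Gad2 (1.53), Gabra4 (1.22) and Gad1 (1.06). Abat was above Gabbr2 in each miR-431 library and below it in each miR-LacZ library. The ranges of Gad2, Gabra4 and Gad1 overlapped in both groups, so their order is not distinct.

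Of the 18 other GABA-A receptor subunit genes, 2 passed the level filter and 0 were called by limma, while 1 had an unadjusted p below 0.05. Gabrq, the theta subunit gene, stood at 3.73 ± 0.616 FPKM in miR-431 cells and 4.44 ± 1.06 FPKM in miR-LacZ cells (not called, limma adjusted p = 0.357). Gabrd, the delta subunit gene, averaged 0.569 ± 0.135 FPKM in miR-431 cells and 0.899 ± 0.327 FPKM in miR-LacZ cells and was not tested. Gabra6 and Gabrg3 were listed at 0 in all 8 libraries.

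The wider GABA system was described with lists of 106 genes, of which 62 were tested. These lists were chosen with earlier results of these data known, so the shares below are descriptive and were not tested. Among these 62, 18 rose, 7 fell and 37 were not called (40.3% called, against 29.3% of all tested genes), and the median log2 fold change was 0.14, against −0.01 over all tested genes. Slc1a2, Gng2 and Ajap1 passed the level filter only through the group in which they were high. Without all genes that passed in that way, 22 of 59 GABA system genes were called (37.3%), against 28.0% of all 11593 tested genes that remained. With a pseudocount of 0.01 the log2 fold changes of these 3 genes were −2.24, 2.67 and −6.39, so their size depends on it. With all 18903 genes above 0 tested, of which 21.0% were called, their limma adjusted p was 0.00313, 0.00145 and 0.000794, in that order.

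Among genes of GABA synthesis and breakdown, 3 rose, 2 fell and 5 were not called (median log2 fold change −0.09). In all, 50% were called, against 29.3% of all tested genes. Gls2, a glutaminase that yields glutamate, stood at 4.70 ± 0.486 FPKM in miR-431 cells and 2.01 ± 0.321 FPKM in miR-LacZ cells (log2 fold change 0.92, limma adjusted p = 0.000256). Aldh5a1, whose enzyme takes the product of Abat onward to succinate, stood at 5.95 ± 0.630 FPKM in miR-431 cells and 3.56 ± 0.684 FPKM in miR-LacZ cells (log2 fold change 0.61, limma adjusted p = 0.00578). Once the median of its neighbours was subtracted it no longer passed (0.20, limma adjusted p = 0.330). Akr7a5, which in mouse reduces the same product instead, had a log2 fold change of −0.39 (limma adjusted p = 0.00444), and this call also ended in that setting (−0.13, limma adjusted p = 0.317). Got1, a cytosolic aminotransferase of glutamate, had a log2 fold change of 0.53 (limma adjusted p = 0.0223), which ended without miR-LacZ 3, miR-431 6 or miR-431 7, where the limma adjusted p lay between 0.0506 and 0.0582. Maob, a monoamine oxidase that takes part in making GABA from putrescine, stood at 112 ± 27.7 FPKM in miR-431 cells and 193 ± 38.0 FPKM in miR-LacZ cells (log2 fold change −0.80, limma adjusted p = 0.0132), and without both libraries 1 and 5 it no longer passed (−0.80, limma adjusted p = 0.0583). Nor did Maob pass with the neighbour median over centred values removed (−0.46, limma adjusted p = 0.0919).

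Among transporters of GABA and its precursors, 2 rose, 1 fell and 3 were not called (median 0.25). In all, 50% were called, against 29.3% of all tested genes. Slc1a2, the 1 that fell, passed the level filter only through the miR-LacZ libraries, so nothing is read from this count. Slc1a5, a glutamine carrier, stood at 13.3 ± 2.33 FPKM in miR-431 cells and 6.60 ± 1.18 FPKM in miR-LacZ cells (log2 fold change 0.91, limma adjusted p = 0.00147). Slc6a6, a taurine carrier that can also take up GABA, had a log2 fold change of 0.37 with overlapping groups (limma adjusted p = 0.0385), and it failed the threshold when any 1 of 6 libraries was left out, the exceptions being the fits without miR-LacZ 1 or miR-431 8, and the limma adjusted p of the 6 lay between 0.0672 and 0.0903. Slc1a2, a glutamate carrier of astrocytes, stood at 0.547 ± 0.180 FPKM in miR-431 cells and 2.64 ± 0.996 FPKM in miR-LacZ cells (log2 fold change −1.21, limma adjusted p = 0.000852).

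Among scaffold and trafficking genes of GABA-A receptors, 6 rose, 1 fell and 11 were not called (median 0.20). In all, 38.9% were called, against 29.3% of all tested genes. Zdhhc3, introduced above, stood at 8.99 ± 1.03 FPKM in miR-431 cells and 2.82 ± 0.517 FPKM in miR-LacZ cells (log2 fold change 1.39, limma adjusted p = 4.1e-05). Once the median of its neighbours was subtracted, the log2 fold change of Zdhhc3 was 0.64 (limma adjusted p = 0.00971). Gphn, the gene of the scaffold protein gephyrin, named after its value was seen, had a log2 fold change of −0.20 and was not called (limma adjusted p = 0.0868). Hap1, which helps to recycle GABA-A receptors to the surface, had a log2 fold change of 0.58 (limma adjusted p = 0.0105) and Plcl2 one of 0.44 (limma adjusted p = 0.00887). Plcl2 no longer passed once the median of its neighbours was subtracted (0.18, limma adjusted p = 0.263). Gabarapl2 passed narrowly (0.51, limma adjusted p = 0.0490) and failed the threshold when any 1 of 6 libraries was left out, the exceptions being the fits without miR-LacZ 3 or 4 (limma adjusted p from 0.0513 to 0.104). Without miR-LacZ 4 its log2 fold change was 0.32 (limma adjusted p = 0.0430).

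Among partners and effectors of GABA-B receptors, 5 rose, 2 fell and 8 were not called (median 0.14). In all, 46.7% were called, against 29.3% of all tested genes. Gng2 and Ajap1 passed the level filter only through the group in which they were high, so nothing is read from this count. Ajap1, whose protein binds the Gabbr1 subunit, was listed at 0.1, 0.128, 0.0103 and 0.110 FPKM in libraries 5, 6, 7 and 8 of miR-431 cells, against 6.22, 4.51, 4.56 and 14.1 FPKM in libraries 1, 2, 3 and 4 of miR-LacZ cells. Its log2 fold change was −2.81 (limma adjusted p = 0.000101). Rgs4, which shortens signalling by inhibitory G proteins, stood at 9.71 ± 2.94 FPKM in miR-431 cells and 3.77 ± 0.562 FPKM in miR-LacZ cells (log2 fold change 1.13, limma adjusted p = 0.00216). Gng2, a G protein gamma subunit gene, had a log2 fold change of 0.998 (limma adjusted p = 0.000613), and Kcnj6, a subunit of potassium channels that GABA-B receptors open, one of 0.55 (limma adjusted p = 0.0106). Kctd8, an auxiliary subunit of the receptor, had one of −0.37 (limma adjusted p = 0.0332), and it failed the threshold in each of 5 fits, those without miR-LacZ 1, 2 or 3 or miR-431 5 or 7 (limma adjusted p from 0.0539 to 0.0777).

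Among genes that set the chloride gradient, on which the effect of GABA-A receptors depends, 2 rose, 1 fell and 7 were not called (median 0.18). In all, 30% were called, close to the 29.3% of all tested genes. Stk39, a kinase that acts on chloride cotransporters, stood at 3.19 ± 0.481 FPKM in miR-431 cells and 4.96 ± 0.492 FPKM in miR-LacZ cells (log2 fold change −0.51, limma adjusted p = 0.00645). The potassium-chloride cotransporter gene Slc12a4 had a log2 fold change of 0.35 (limma adjusted p = 0.0471), and it failed the threshold when any 1 of 6 libraries was left out. It passed without miR-LacZ 4 or miR-431 7, and otherwise stood at limma adjusted p from 0.0885 to 0.120. With the neighbour median removed, its log2 fold change was 0.53 (limma adjusted p = 0.00866). Of 12 transcription factor genes of GABA neurons, only Lhx6 passed the level filter, at 2.65 ± 0.337 FPKM in miR-431 cells and 2.73 ± 0.728 FPKM in miR-LacZ cells (not called, limma adjusted p = 0.959).

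**Figure D3:**
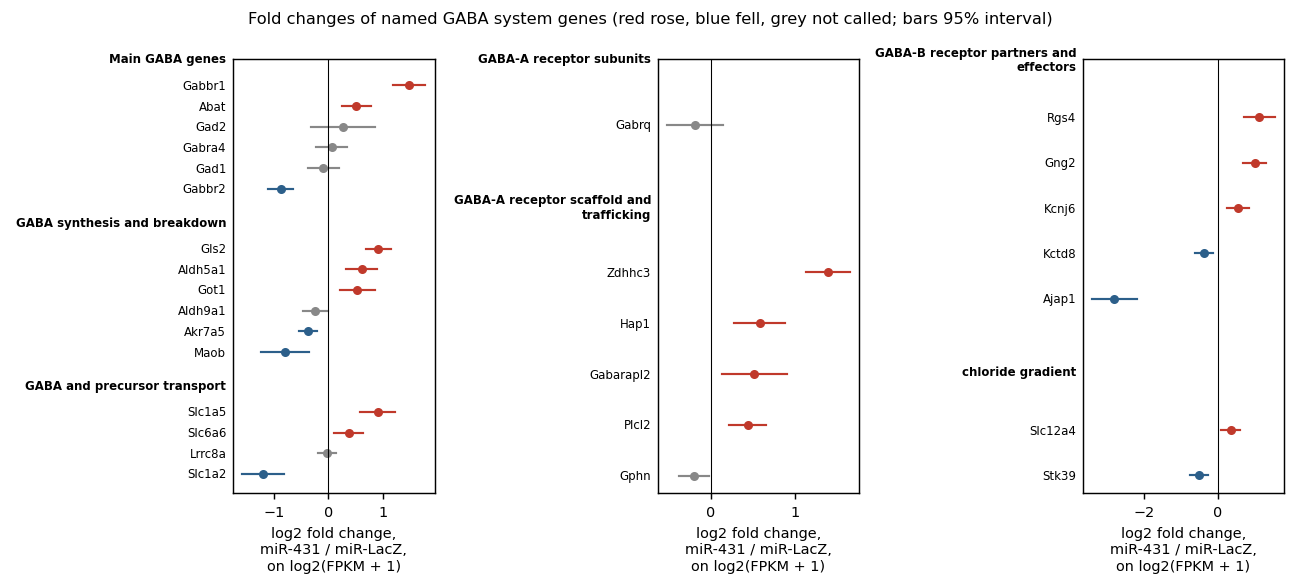
Log2 fold changes, miR-431 over miR-LacZ, with 95% intervals from limma (n = 4 each), of the main GABA genes tested and of tested genes named from 6 GABA system lists, where red marks genes that rose, blue genes that fell and grey genes not called. Gabbr1 (1.49) and Gabbr2 (−0.89) lie at opposite ends of the first group, and Ajap1 (−2.81) lies farthest from 0.

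Markers of GABA neurons and glia were examined beside these values. Of 8 interneuron markers 3 were tested, of which Reln rose (log2 fold change 1.06, limma adjusted p = 0.00084) and Cck fell (−0.695, limma adjusted p = 0.0118). Their list summed to 237 to 390 FPKM in miR-431 libraries and 378 to 498 FPKM in miR-LacZ libraries. Most of this sum was Cck, which ran from 228 to 492 FPKM across all libraries, with overlapping groups. Vip and Calb2 were listed at 0 in every miR-LacZ library, and Pvalb, Vip and Calb2 did not exceed 0.0755 FPKM in any library. Of 10 general neuronal markers 6 were tested and limma called 0, while 1 had an unadjusted p below 0.05, with sums of 281 to 353 FPKM in miR-431 libraries and 331 to 420 FPKM in miR-LacZ libraries. Of 4 astrocyte markers, Aqp4 and Aldh1l1 rose (1.31 and 0.84, limma adjusted p = 5.82e-05 and 0.00486), while Gfap was listed at 0 in every miR-431 library and did not exceed 0.0309 FPKM in any library, and Slc1a3 did not exceed 0.0129 FPKM. The astrocyte list summed to 9.03 to 11.6 FPKM in miR-431 libraries and 3.11 to 3.98 FPKM in miR-LacZ libraries. The part of other cell types in the changes of GABA genes was not tested.

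For each tested gene of the 7, the other genes with the most similar pattern were found by Pearson's correlation of log2(FPKM + 1) over the 8 libraries, which form 2 groups and share their scaling. Gabbr1 was most like Naa38 (r = 0.996) and Mapk12 (r = 0.994), and Gabbr2 was most like Kazn (r = 0.996), Gemin5 (r = 0.995) and Sez6l (r = 0.985). Abat was most like Chd3 (r = 0.991), Pde4dip (r = 0.983) and Fam13b (r = 0.982). Each of these genes was called in its partner's direction, which its choice by correlation made likely, so nothing is read from this. For Gad1 they were Rchy1 (r = 0.971), Tmub1 (r = 0.968) and Wdr45b (r = 0.963), for Gad2 Cenpe (r = 0.984), Kcnh1 (r = 0.983) and Pop1 (r = 0.982), and for Gabra4 Chd9 (r = 0.959), Tmod3 (r = 0.954) and Dsel (r = 0.932), none of which was called. These correlations describe 8 libraries and carry no test.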

How the data were processed

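The authors deposited 1 table of FPKM values per gene and library. Per the submitters' processing notes, TopHat2 2.0.11, Cufflinks 2.1.1, CASAVA 1.8.2 and cutadapt were used with build mm9, and reads were paired and 51 bases long per the labels' protocols. The unit is not in the file header and was taken from the values and the tools. The 75th percentile lay between 14.5 and 14.7 FPKM in every library. Strand is not stated to have been used. Read counts were not given, so fragments behind a value were estimated from the commonest product of FPKM and transcript length among low values, and no counting interval is given.

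The 11807 genes that reached 1 FPKM in 4 or more libraries entered a limma fit (version 3.58.1, R 4.3.3) of log2(FPKM + 1) with the trend option and Benjamini-Hochberg adjustment over all of them. The script was tested on simulated data. The genes, lists and alternatives were chosen with earlier results of these data known. The text names the 7 genes, up to 5 called genes per list by size of change, or the most abundant where none was called, and 3 genes of similar pattern per tested gene; some genes that this rule names are not reported here. Seed matches and transcript lengths came from GENCODE M21 (GRCm38), to which 23086 of 23309 genes could be linked, and no coordinate was carried over to mm9. Alternatives changed the pseudocount, level filter, scaling, trend, weights and libraries, and removed the median of 30 neighbouring genes. Figures used Python 3.11.15 with matplotlib 3.10.9.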

Additional observations from a re-analysis of the deposited data

Results flagged for a closer look

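Of 56 groups of 4 libraries checked among the named GABA genes, 2 held a library whose gap to its nearest neighbour was large against the range of its group, and chance flags about 1 in 20 such groups. Plcl2 stood at 12.4 FPKM in miR-LacZ 4, while the other 3 miR-LacZ libraries lay between 9.76 and 10.1 FPKM. Kctd8 stood at 2.27 FPKM in miR-LacZ 1, while the other 3 lay between 1.81 and 1.83 FPKM.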

How the results depend on the processing

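The calls of Gabbr1, Gabbr2 and Abat held under every alternative in which each had a value, with log2 fold changes of 1.19 to 2.84, −1.06 to −0.76 and 0.43 to 0.72. Gad1 was called in none, Gad2 only with array weights (0.46) and Gabra4 only with the neighbour median removed (0.42). Gabbr1, Gad1, Gad2 and Gabra4 had no value at a filter of 5 FPKM, and Slc32a1 only without a filter. With array weights 2858 genes rose and 2987 fell in all, and with the neighbour median removed 1214 rose. The number of GABA system genes that fell, 7 in the chosen setting, was 11 with array weights, 2 with the filter of 5 FPKM, which tests fewer genes, 4 without both libraries 1 and 5, 4 with the neighbour median removed and 3 when it was taken over centred values, and the cause was not tested. In exact permutation tests without libraries 1 and 5, the differences of Abat, Gabbr1 and Gabbr2 were 18.6, 2.69 and −22.7 FPKM, each with the smallest p that 3 against 3 allow, 0.1. With the neighbour median removed, Slc6a6 (0.08), Gabarapl2 (0.25) and Kctd8 (−0.03) also failed the threshold. No paired analysis was possible because the groups share no replicate numbers, and the term fitted for libraries 1 and 5, which changed the call of none of the 6 tested genes, pairs no samples. Depth limits Slc32a1 most, since it rests on few fragments.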

Other observations

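Several GABA system genes below the level filter were read in a fit of all 18903 genes above 0, chosen after their values were seen. Of the 40 such genes on the lists with a value, 7 rose and 0 fell, against 7.0% and 6.45% of all genes below the filter. Kctd16, an auxiliary subunit of the GABA-B receptor, stood at 1.87, 0.854, 1.11 and 1.01 FPKM in libraries 5, 6, 7 and 8 of miR-431 cells, against 0.225, 0.0823, 0.0226 and 0.0886 FPKM in libraries 1, 2, 3 and 4 of miR-LacZ cells (log2 fold change 0.98, limma adjusted p = 0.00185). It differed in the same direction as Gabbr1, while the related Kctd8 fell. Shisa7, an auxiliary protein of GABA-A receptors, stood at 0.764 ± 0.0600 FPKM in miR-431 cells and 0.0701 ± 0.0320 FPKM in miR-LacZ cells (log2 fold change 0.72, limma adjusted p = 2.26e-05). Slc6a11, a GABA carrier of glia, was listed at 0.204, 0.272, 0.275 and 0.102 FPKM in libraries 5, 6, 7 and 8 of miR-431 cells and at 0 in all 4 miR-LacZ libraries. The levels of Kctd16, Shisa7 and Slc6a11 are low, and their calls depend on testing genes that the main filter leaves out.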
